A study of Homo sapiens with 4 samples.

Results

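The genes described here encode the machinery that brings newly made proteins into the endoplasmic reticulum (ER) and carries them between the ER and the Golgi apparatus. The set holds 46 genes out of 56655 gene symbols in the count tables. They were chosen by symbol, as named parts of this machinery, and belong to 7 groups: the Sec61 channel with SEC62 and SEC63 (6 genes), the translocon-associated protein (TRAP) complex (4 genes), the signal recognition particle with its receptor (7 genes), signal peptidase (5 genes), the COPII coat (11 genes), the COPI coat (7 genes) and cargo receptors (6 genes).

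RNA was sequenced from OVCAR5, an established human ovarian cancer line labelled high grade serous, in 2 libraries carrying a control hairpin (shCtrl) and 2 carrying a hairpin against the forkhead transcription factor gene FOXK2 (shFOXK2). Cells process such a hairpin to a short RNA that targets a matching transcript for decay. Per the study's methods both groups were stably transduced with lentivirus and kept under puromycin, the control hairpin was a nontargeting sequence in the pLKO.1-puro vector, and the figure legends name a single FOXK2 hairpin, shFOXK2-2, for the RNA-seq. All 4 libraries therefore come from 1 cell line and 1 hairpin per group, and an effect of FOXK2 loss cannot be told apart from any other effect of that hairpin. The design text calls the libraries biological duplicates.

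Proteins with a signal sequence are met on the ribosome by the signal recognition particle, are handed to the Sec61 channel in the ER membrane and lose the signal sequence to signal peptidase. Folded cargo leaves the ER in vesicles shaped by the COPII coat, and the COPI coat returns receptors and escaped ER residents from the Golgi. Many of these genes are known targets of the unfolded protein response, in which the ER sensor IRE1α, encoded by ERN1, splices the XBP1 transcript to give an active transcription factor.

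Library totals ran from 14284005 to 21950873 counts, and a floor of 3 counts corresponded to 0.137 to 0.21 CPM, the counts relative to each library's normalized size. The targeted gene, FOXK2, was counted 1796 and 1499 times in the shCtrl libraries, and 1086 and 1084 times in the shFOXK2 libraries. Its log2 fold change was −0.36 (SE 0.25, edgeR adjusted p = 0.257), so the lower transcript level did not pass the test. With an offset on GC or A content in the fit, it was −0.07 or −0.037 (edgeR adjusted p = 0.751 and 0.871). By other assays, qRT-PCR and western blot, the study reported lower FOXK2 RNA and protein in OVCAR5 cells carrying its FOXK2 hairpins. ERN1 fell from 48.2 ± 3.81 to 11.6 ± 1.79 CPM (SD, n = 2), XBP1 from 78.6 ± 8.07 to 23.7 ± 2.93 CPM, and HSPA5, which encodes the ER chaperone BiP, from 1377 ± 1.58 to 404 ± 82.9 CPM. Of the 6 epithelial markers, the keratin genes KRT7, KRT8, KRT18 and KRT19 and the adhesion gene EPCAM were abundant in all 4 libraries without passing the test, while CDH1, which encodes E-cadherin, fell from 18.4 ± 3.1 to 1.12 ± 0.286 CPM. Of the 5 ovarian serous markers, WT1 and ESR1 had at most 3 counts in every library, PAX8 fell from 18.3 to 9.93 CPM, MUC16 fell from 13.4 to 0.22 CPM and MSLN rose from 3.3 to 7.12 CPM. The 6 gastrointestinal epithelial markers summed to 221 and 248.6 CPM in shCtrl and 138.8 and 156.6 CPM in shFOXK2, most of it KRT20, which fell. Within this list CDX2 did not pass the test, and LGALS4 rose from 3 and 1 counts in shCtrl to 15 and 16 in shFOXK2. At most 3 counts in every library were found for 4 of 6 leukocyte and 3 of 6 fibroblast markers. Summed endothelial markers were 10.6 and 7.72 CPM in shCtrl and 0.633 and 2.03 CPM in shFOXK2. Summed leukocyte markers, nearly all CD14, were 18.1 and 22.6 against 9.14 and 9.39 CPM. Summed fibroblast markers were 20.5 and 18.9 against 16.5 and 13.6 CPM. Most of the fibroblast sum was COL1A1, at 14 CPM in shCtrl and 14.2 CPM in shFOXK2, which did not pass, while PDGFRB fell from 5.56 to 0.29 CPM. The part of these marker differences in the results was not tested. These are bulk libraries, in which fewer cells of a kind and less RNA per cell cannot be told apart.

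The 5′ flanks of these genes were examined for short sequences that the choice of genes did not use. RefSeq start sites on GRCh38.p14 were found for 43 of the 46 genes, in windows running from 250 bases before to 50 bases after each start. Windows on a single chromosome, which holds none of the 46 genes, were left out of all motif counts. Other chromosomes without any of these genes were kept. The core of the unfolded protein response element (UPRE), TGACGTGG or its complement CCACGTCA, was present in a window of 11 of the 43 genes (25.6%), against 253 of 27305 genes with a window (0.927%). The 11 genes were COPA, COPB1 and COPB2 of COPI, SEC23A, SEC24A and SEC16A of COPII, the KDEL receptor gene KDELR3, SSR3 and SSR4 of TRAP, SRP19 of the signal recognition particle, and SEC62. The flanks below, each the 200 bases before a start and written 5′ to 3′ with the UPRE core in capitals, are shown because 3 of these genes fell and SEC62 rose in shFOXK2.
KDELR3 chr22:38467896-38468095, plus strand: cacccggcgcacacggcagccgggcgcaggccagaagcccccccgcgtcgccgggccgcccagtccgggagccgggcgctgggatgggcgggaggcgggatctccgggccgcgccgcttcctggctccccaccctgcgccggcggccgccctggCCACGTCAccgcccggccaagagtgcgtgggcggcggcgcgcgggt
COPB2 chr3:139389681-139389880, minus strand: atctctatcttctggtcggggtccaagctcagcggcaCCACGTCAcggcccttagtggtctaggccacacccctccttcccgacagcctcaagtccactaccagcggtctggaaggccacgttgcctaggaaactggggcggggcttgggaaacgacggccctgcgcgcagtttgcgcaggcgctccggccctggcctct
SEC24A chr5:134648585-134648784, plus strand: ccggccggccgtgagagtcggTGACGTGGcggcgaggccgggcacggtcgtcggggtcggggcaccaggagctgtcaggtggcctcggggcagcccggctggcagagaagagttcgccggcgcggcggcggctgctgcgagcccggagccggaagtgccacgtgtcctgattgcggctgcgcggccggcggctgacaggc
SEC62 chr3:169966607-169966806, plus strand: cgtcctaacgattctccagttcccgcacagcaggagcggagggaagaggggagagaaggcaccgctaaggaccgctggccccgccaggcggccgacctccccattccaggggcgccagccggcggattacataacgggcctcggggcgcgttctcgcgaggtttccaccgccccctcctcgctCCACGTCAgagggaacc

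Among the 43 genes, other motifs were rarer. The ER stress response element (ERSE, CCAAT and CCACG with 9 bases between) and ERSE-II (ATTGG and CCACG with 1 base between) were found in no window of the 43 genes, against 0.0916% and 0.0696% of all genes with a window. At shares this low, an absence among 43 genes says little. The forkhead core GTAAACA was found for SRP54 alone, 2.33% of the 43 genes against 4.19% of all genes. Both strands were searched for each motif, a UPRE core can lie within a longer element, and a match describes letters in a window and not a bound site. Of the 11 genes with a UPRE core, 6 fell and 1 rose in shFOXK2, with a median log2 fold change of −0.91. Of the 32 genes with a window and no core, 8 fell and 4 rose, with a median of −0.14. Of all genes tested, 22.7% fell and 25.7% rose. The genes with a core that fell, COPA, COPB2, SEC23A, SEC24A, SEC16A and KDELR3, all belong to the coats or cargo receptors. SEC24D and KDELR2, which fell, and SPCS1 had no window and are in neither count. The comparison by core is thus mixed with that by complex, and it was not tested.

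To see how the secretory machinery differed between the groups, all 46 genes were read from a fit over the whole table. Each passed the filter on low counts. A gene is said to rise or fall where its adjusted p-value from the quasi-likelihood test of edgeR was under 0.05. By this rule 16 genes fell and 5 rose in shFOXK2, and 25 did not pass. The share that passed, 45.7%, was near the 48.4% of all 16417 genes tested, so this share is not a result about these genes. In the background 22.7% of genes fell and 25.7% rose. The CPM of the groups did not overlap for 32 of the 46 genes, against 75.4% of all genes tested. With 2 libraries a group, an exact permutation of labels cannot give a p below 0.333, so the adjusted p-values rest on variance shared between genes in the model.

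Falls and rises were spread unevenly over the complexes. The vesicle side of the pathway (COPII, COPI and cargo receptors, 24 genes) held 15 of the 16 genes that fell and none that rose, and its median log2 fold change was −0.88. The translocation side (Sec61, TRAP, signal recognition particle and signal peptidase, 22 genes) held 1 gene that fell and all 5 that rose, with a median of 0.15. Against the background, the falls on the vesicle side (62.5% of its genes) exceed 22.7%, whereas the 5 rises among 22 translocation genes are a share just under 25.7%, so they are not a result about that side. With an offset on GC content 6 translocation genes fell and 5 rose, while 18 vesicle genes fell and none rose. That fit called 8707 of all genes tested, against 7940 without the offset. The share of all genes that fell or rose in it is not given here, so 22.7% and 25.7% are not its background. The median over all genes tested was 0.042. This split into sides was drawn after the values were seen and was not tested.

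**Figure D1:**
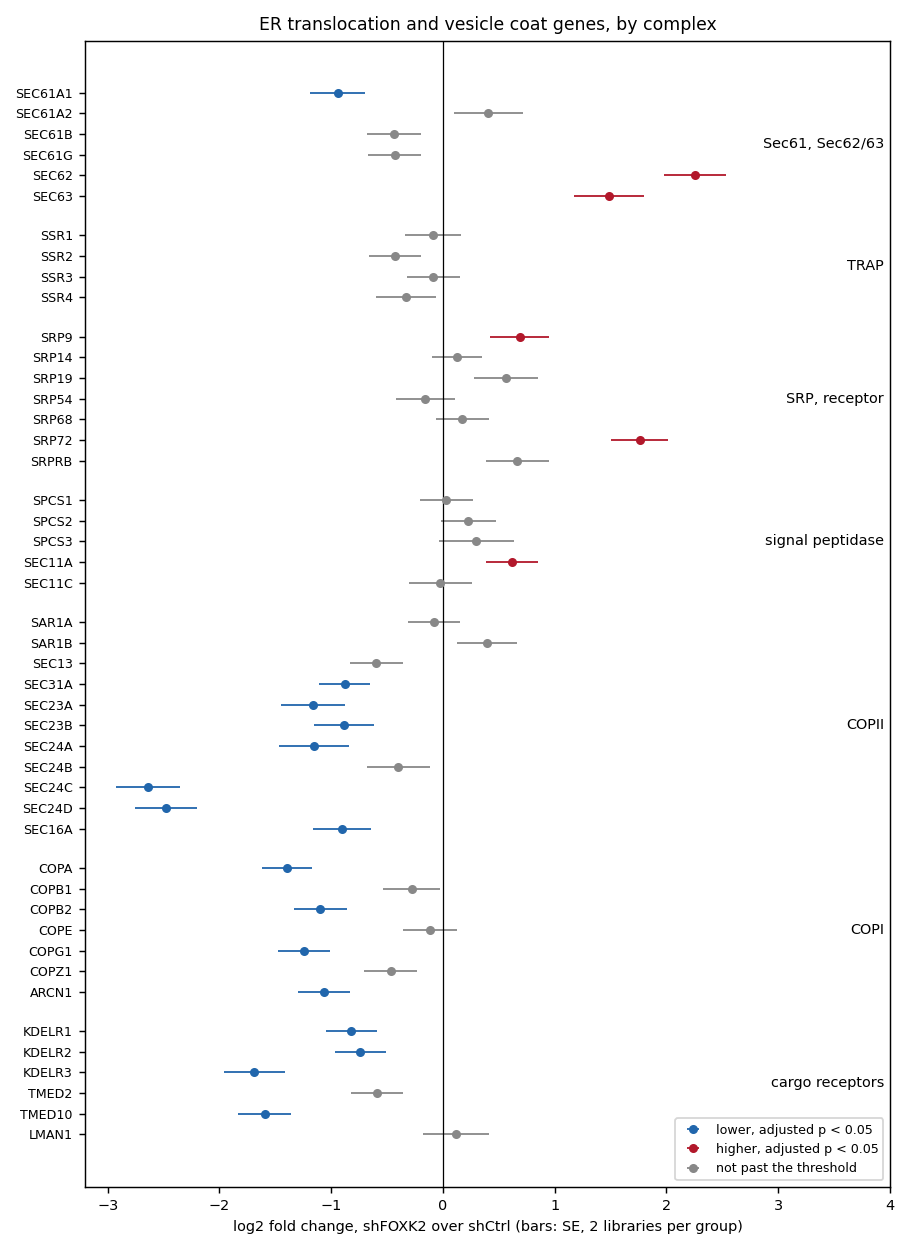
Log2 fold change of each of the 46 genes in shFOXK2 over shCtrl, grouped by complex, with the standard error of the fit as bars, blue for genes that fell, red for genes that rose and gray for genes that did not pass the test. The COPII, COPI and cargo receptor genes that passed the test all lie left of 0, down to −2.64 for SEC24C, and the largest rise is 2.25 for SEC62.

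At the ER membrane, the main pore gene of the Sec61 channel fell, while SEC62 and SEC63, grouped with the channel here, rose. SEC61A1, which encodes the pore-forming α subunit of the Sec61 channel, had 461 and 541 CPM in shCtrl and 299 and 222 CPM in shFOXK2. Both shFOXK2 libraries lay below both controls, and SEC61A1 fell 1.92-fold (log2 fold change −0.94, SE 0.24, adjusted p = 0.00618). SEC62, whose product works with SEC63 in the entry of proteins after their synthesis, had 128 and 81.2 CPM in shCtrl and 437 and 560.0 CPM in shFOXK2. It rose 4.77-fold (log2 fold change 2.25, SE 0.28, adjusted p = 3.82e-05), and every shFOXK2 value was more than 3 times every shCtrl value. SEC63, which recruits the chaperone BiP to the channel, rose as well, from 59.8 and 30.3 CPM to 111 and 142 CPM (log2 fold change 1.49, SE 0.31, adjusted p = 0.00164). The shCtrl libraries themselves differed for SEC63, with a ratio of 1.97 between them.

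The small subunits of the channel were not called in the main fit. SEC61B and SEC61G, which encode its β and γ subunits, had log2 fold changes of −0.44 and −0.43 (adjusted p = 0.151 and 0.15). Both fell with an offset on transcript length, at −0.88 and −1.01, and SEC61G also with the GC offset, at −1.23. With the A-content offset neither was called, at −0.09 and −0.40. SEC61A2, the rarer paralog of the pore subunit, had 6.81 and 6.29 CPM in shCtrl and 9.0 and 8.4 CPM in shFOXK2, which did not pass the test (log2 fold change 0.41, adjusted p = 0.294). Per kilobase of transcript SEC61A2 stood at 0.0187 of SEC61A1 in shCtrl and at 0.0477 in shFOXK2.

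The TRAP complex, which sits beside the channel and helps some signal sequences to engage it, held no gene that passed the test. SSR1 had 193 and 132 CPM in shCtrl and 161 and 145 CPM in shFOXK2. SSR3 had 201 and 160.2 CPM against 184 and 156 CPM, and SSR4 had 98.2 and 145 CPM against 112 and 81.0 CPM. The groups overlapped for these 3 genes, with log2 fold changes from −0.33 to −0.09. SSR2 was lower in both shFOXK2 libraries, without passing the test (log2 fold change −0.43, adjusted p = 0.14). These results depended on the fit. With an offset on GC content SSR1 and SSR3 fell, at −0.45 and −0.65. With an offset on transcript length SSR2 and SSR4 fell, at −0.60 and −0.70. With the A-content offset no TRAP gene was called, and SSR1 and SSR4 lay above 0. For SSR4 a pseudogene copy held 3.62% to 7.98% of the joint counts, so its reads may be split.

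Among the genes of the signal recognition particle, which binds signal sequences as they leave the ribosome, SRP72 showed the largest difference. SRP72, which encodes a protein of the particle's S domain, had 80.8 and 57.9 CPM in shCtrl and 215 and 256 CPM in shFOXK2, a rise of 3.39-fold (log2 fold change 1.76, SE 0.26, adjusted p = 0.000122). Its groups lay far apart. SRP68, which pairs with SRP72 in the particle, had 109.6 and 129 CPM in shCtrl and 147 and 123 CPM in shFOXK2, and its groups overlapped (log2 fold change 0.17, adjusted p = 0.57).

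SRP9, which forms the Alu domain with SRP14, rose with an adjusted p of 0.047 (71.8 and 57.6 CPM against 84.2 and 124 CPM, log2 fold change 0.69, SE 0.27), a call kept in 4 of 12 alternative fits. SRP14 had a log2 fold change of 0.13 and SRP19 of 0.57, and neither passed. SRP54, the GTPase subunit that holds the signal sequence, had 82.2 and 57.8 CPM in shCtrl and 58.8 and 66.8 CPM in shFOXK2, so that both shFOXK2 values lay within the control range. SRPRB, the membrane-anchored receptor subunit, was higher in both shFOXK2 libraries with an adjusted p of 0.0649.

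Of the 5 signal peptidase genes, SEC11A alone passed the test. SEC11A, a catalytic subunit, had 186 and 192 CPM in shCtrl and 258 and 321 CPM in shFOXK2 (log2 fold change 0.62, SE 0.23, adjusted p = 0.0406), and its call was kept in 8 of 12 alternative fits and in 1 of 4 fits that left out a library. Its paralog SEC11C had 13.6 and 15.6 CPM against 14.6 and 14.1 CPM, with overlapping groups. The accessory subunit genes had log2 fold changes of 0.03 (SPCS1), 0.23 (SPCS2) and 0.30 (SPCS3). SPCS1 had 87.8 and 97.9 CPM in shCtrl and 101 and 88.5 CPM in shFOXK2, and 71.4% of its exon bases are overlapped by NEK4 on the opposite strand. SPCS3 had 64.4 and 28 CPM in shCtrl, a spread that holds both shFOXK2 values of 53.3 and 60.7 CPM.

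In the COPII coat, 7 of 11 genes fell and none rose, with a median log2 fold change of −0.89. The steepest falls were in the cargo adaptor genes. SEC24C (ENSG00000176986.16, chromosome 10, 73744372 to 73772161 on hg38) had 98.6 and 105 CPM in shCtrl and 19.9 and 12.9 CPM in shFOXK2. SEC24D (ENSG00000150961.15, chromosome 4, 118722823 to 118838683) had 66.5 and 52.3 CPM against 10.4 and 10.9 CPM. Both adaptor genes were several-fold lower in each shFOXK2 library than in either control, with log2 fold changes of −2.64 (SE 0.29, adjusted p = 1.65e-05) and −2.48 (SE 0.28, adjusted p = 1.92e-05). For SEC24C, 43.4% of exon bases are overlapped by an unnamed gene on the opposite strand.

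SEC24A, which with SEC24B forms the other subclass of these adaptors, fell less, from 70.1 and 36.6 CPM to 25 and 23 CPM (log2 fold change −1.15, SE 0.31, adjusted p = 0.00789). Its shCtrl libraries differed by a ratio of 1.92, and without shCtrl replicate 1 its call was lost, at a log2 fold change of −0.64. SEC24B had 51.6 and 33.3 CPM in shCtrl and 33.8 and 30.6 CPM in shFOXK2, with overlapping groups and an adjusted p of 0.256. The 4 SEC24 genes therefore differed in how far they moved, and their order per kilobase changed. SEC24C held 42.7% ± 7.98 of the summed SEC24 level per kilobase in shCtrl and 22.2% ± 4.47 in shFOXK2 (SD, n = 2), while SEC24B went from 15.2% ± 2.53 to 38.7% ± 1.31.

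The inner-coat partner of SEC24 and the outer coat were lower too. SEC23A, a GTPase activator of the inner coat, had 218 and 118 CPM in shCtrl and 70.7 and 79.2 CPM in shFOXK2 (log2 fold change −1.16, SE 0.29, adjusted p = 0.00488). Its paralog SEC23B had 91.8 and 101 CPM against 63 and 41.1 CPM (log2 fold change −0.89, SE 0.27, adjusted p = 0.0147). SEC31A, an outer-coat subunit, and SEC16A, a scaffold of ER exit sites, fell with log2 fold changes of −0.88 and −0.91. SEC13, which pairs with SEC31A in the outer coat and is also part of the nuclear pore, was lower without passing the test (log2 fold change −0.59, adjusted p = 0.0555). Without shFOXK2 replicate 2 the calls of SEC23B and SEC16A were lost, at log2 fold changes of −0.64 and −0.70, as was that of SEC61A1, at −0.78.

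The GTPase genes that start coat assembly did not pass the test. SAR1A had 134 and 118 CPM in shCtrl and 109 and 129 CPM in shFOXK2. SAR1B had 55.6 and 38.7 CPM against 68.9 and 55.4 CPM. In both genes the groups overlapped, with log2 fold changes of −0.08 and 0.40.

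**Figure D2:**
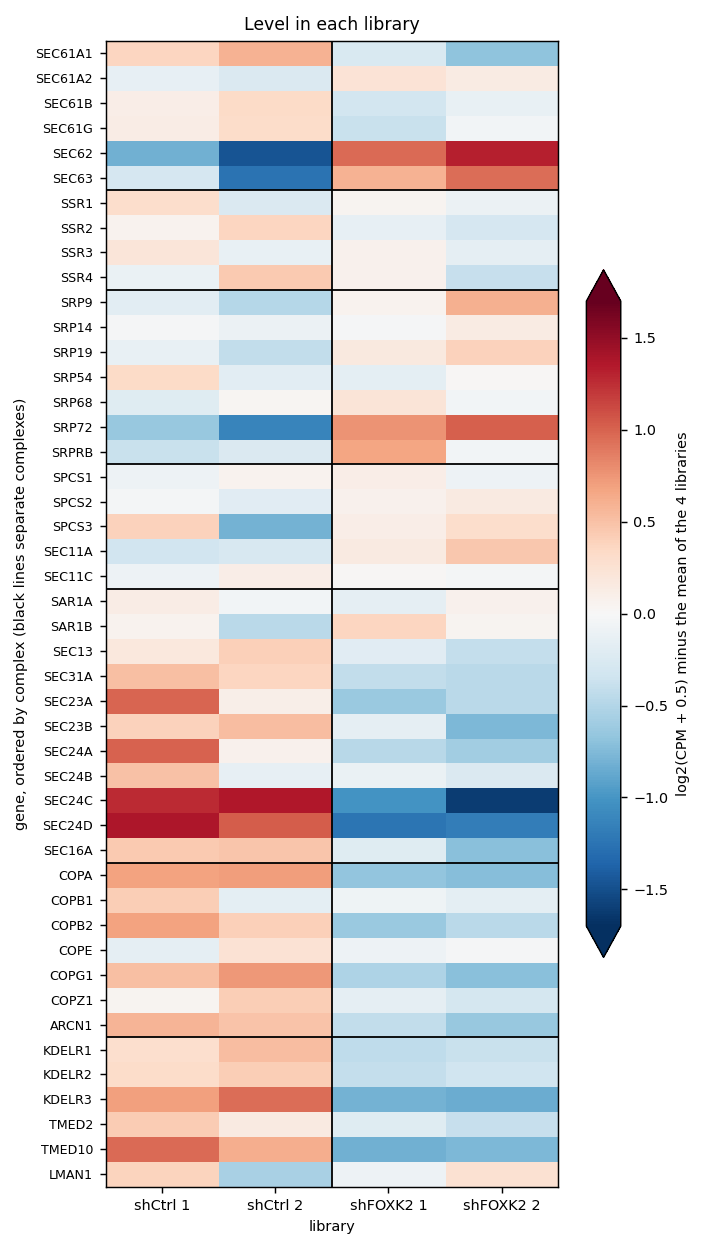
Heat map of log2(CPM + 0.5) in each of the 4 libraries (columns) for the 46 genes (rows, by complex), minus each gene's mean over the libraries, red for above and blue for below. SEC24C and SEC24D, at 10.4 to 19.9 CPM in shFOXK2 against 52.3 to 105 CPM in shCtrl, have the strongest red to blue contrast, and SEC62, SEC63 and SRP72 have the reverse.

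Of the COPI coat, 4 of 7 genes fell, none rose, and all 7 had log2 fold changes below 0, of which that of COPE turned above 0 under the GC and A-content offsets. COPA, which encodes the α subunit, had 353 and 359.9 CPM in shCtrl and 138 and 133 CPM in shFOXK2, a fall to 38.0% of the control mean (log2 fold change −1.40, SE 0.23, adjusted p = 0.00028). The replicates of COPA were close and the groups far apart. COPG1 and ARCN1, which encode the γ and δ subunits of the membrane-facing layer of the coat, had log2 fold changes of −1.24 (adjusted p = 0.000774) and −1.06 (adjusted p = 0.00198). COPB2, which encodes the β′ subunit that joins the α subunit in the outer layer, had a log2 fold change of −1.10 (adjusted p = 0.00191). Of the COPB2 exon bases, 29.6% are overlapped on the opposite strand by MRPS22.

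The remaining COPI genes did not pass the test. COPB1, the β subunit gene, had 153 and 102 CPM in shCtrl and 108 and 102 CPM in shFOXK2. COPE, whose ε subunit stabilizes the α subunit, had 104 and 138 CPM against 109 and 114 CPM. The groups overlapped for both. COPZ1, the ζ subunit gene, was lower in each shFOXK2 library, at a log2 fold change of −0.47 (adjusted p = 0.12).

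Among the cargo receptors, 4 of 6 fell. The KDEL receptors catch ER residents such as BiP in the Golgi and return them through COPI vesicles. KDELR1 had 317 and 372 CPM in shCtrl and 192 and 199 CPM in shFOXK2, and KDELR2 had 693 and 748 CPM against 422 and 442 CPM. KDELR3 (ENSG00000100196.11, chromosome 22, 38468078 to 38483447) had 35 and 42 CPM against 12.1 and 11.8 CPM. All 3 receptors were lower in both shFOXK2 libraries, with log2 fold changes of −0.82 (SE 0.23, adjusted p = 0.00932), −0.74 (SE 0.23, adjusted p = 0.0166) and −1.69 (SE 0.27, adjusted p = 0.000264). KDELR3 took 4.51% ± 0.206 of the summed KDEL receptor level per kilobase in shCtrl and 2.45% ± 0.11 in shFOXK2. The call of KDELR2 was lost when either shFOXK2 library was left out, at log2 fold changes of −0.73 and −0.80.

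TMED10, a p24 family protein that cycles between ER and Golgi, had 546 and 431 CPM in shCtrl and 159 and 165 CPM in shFOXK2, a 3.02-fold fall (log2 fold change −1.60, SE 0.24, adjusted p = 0.000154). TMED2, another p24 protein, had a log2 fold change of −0.59 with an adjusted p at the threshold, 0.05, and was not called. LMAN1, a lectin that carries glycoproteins out of the ER, had 123 and 64.5 CPM in shCtrl and 89.6 and 114 CPM in shFOXK2, and its shFOXK2 values lay inside the control range.

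Summed over each complex, the levels were lower in shFOXK2 for COPII, COPI, the cargo receptors and TRAP, and higher for the other 3 complexes. The COPII genes summed to 1104 ± 130.2 CPM in shCtrl and 627 ± 36.4 CPM in shFOXK2 (SD, n = 2), which is 56.8% of the control mean. COPI stood at 53.1% and the cargo receptors at 55.1%. The signal recognition particle genes summed to 546 ± 34.9 CPM in shCtrl and 808 ± 38.0 CPM in shFOXK2, or 148% of control, and signal peptidase, Sec61 with SEC62 and SEC63, and TRAP stood at 131%, 120.0% and 85.2%. In each complex the sums of the groups did not overlap, which also held for the CPM of 75.4% of all single genes tested. For TRAP the sums were apart although this held for 1 of its 4 genes. A sum does not describe every gene in it. Within the particle's sum, SRP72 went from 69.35 ± 16.15 to 235.5 ± 29.36 CPM, and 5 of the 7 genes were not called. Within the signal peptidase sum, SEC11A went from 188.9 ± 4.866 to 289.8 ± 44.52 CPM, and 4 of the 5 genes were not called. Within the Sec61 sum, SEC61A1, the most abundant gene in shCtrl, fell from 501 ± 56.5 to 261 ± 54.1 CPM, while SEC62 rose from 104 ± 32.9 to 499 ± 86.8 CPM.

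**Figure D3:**
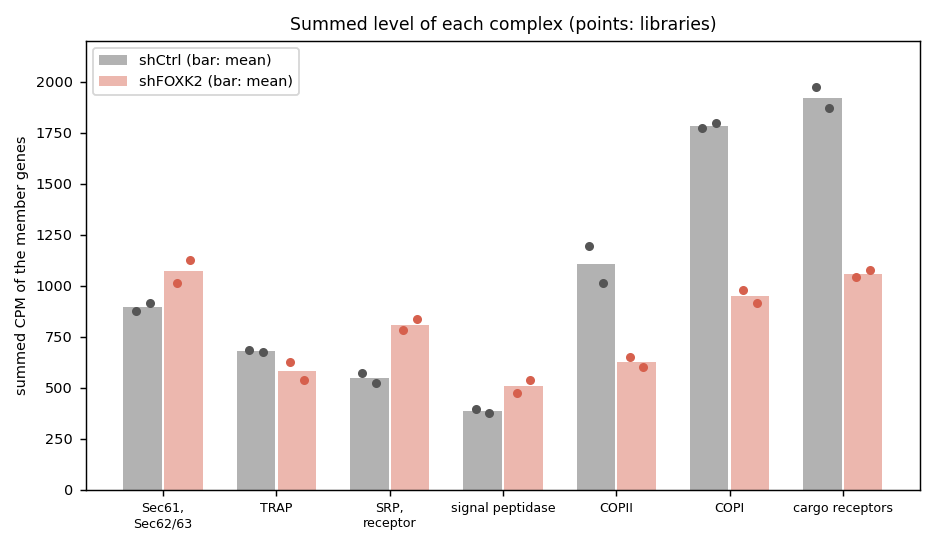
Summed CPM of each of the 7 complexes in the 4 libraries, as points, with the mean of each group as a bar. COPII, COPI and cargo receptor sums in shFOXK2 stand at 53.1% to 56.8% of the control mean. The signal recognition particle sum stands at 148%, and within it SRP72 went from 69.35 to 235.5 CPM.

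Ratios of related genes within a library do not depend on how libraries are scaled. Of 10 ratios compared, 8 had groups that did not overlap. The CPM of single genes did not overlap for 75.4% of all genes tested, so this count is not a result about these ratios. The exact permutation test gives each of the 8 ratios p = 0.333, the smallest possible, and 0.416 after adjustment over the 10. SEC61A2 over SEC61A1 was higher in shFOXK2 by 1.36 on the log2 scale and SEC24B over SEC24A by 0.71. SEC24D over SEC24A was lower, by −1.39, and KDELR3 over KDELR2 by −0.94. The ratio of SEC24D to SEC24C and that of SEC23B to SEC23A differed by 0.20 and 0.18 with overlapping groups.

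**Figure D4:**
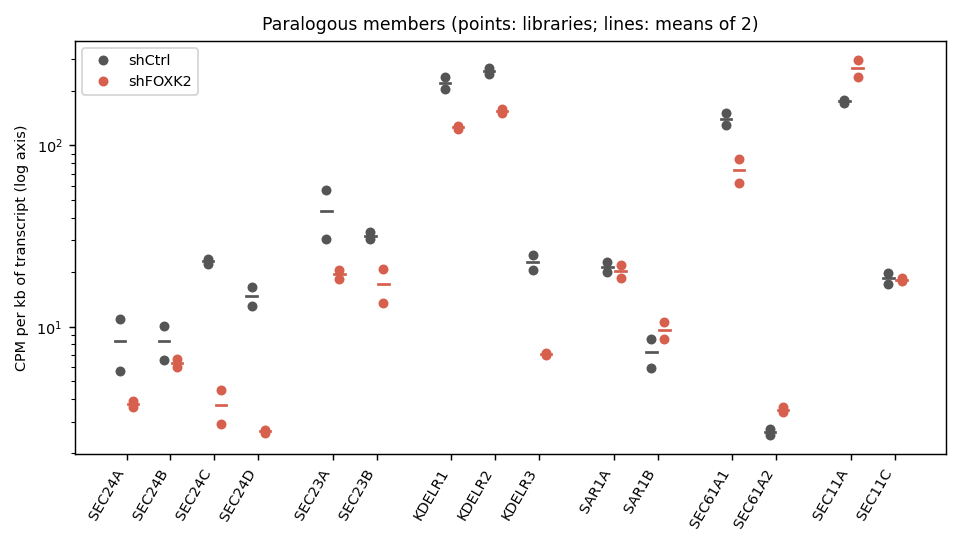
CPM per kilobase of transcript on a log axis for paralogs of the SEC24, SEC23, KDEL receptor, SAR1, SEC61A and SEC11 families, with libraries as points and group means as lines. SEC24C and SEC24D drop from above to below SEC24B in shFOXK2, while KDELR1 and KDELR2 keep similar levels to each other.

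Base composition of the transcripts moved with the values. Across the 46 genes, Spearman's rho between the percentage of A in the transcript and the log2 fold change was 0.41, beside 0.34 across 13134 protein-coding genes tested. This is a correlation across genes that share 4 libraries. The percentage of A also went with differences between replicates, with rho of 0.71 against the log2 ratio of the shCtrl libraries (replicate 1 over 2) and −0.49 against that of the shFOXK2 libraries. Of the 13 genes with under 25% A, 6 fell and none rose. Of the 9 genes with at least 30% A, which include SEC62, SEC63, SRP72 and SRP9, none fell and 4 rose. Median log2 fold changes under 25% A and from 30% A were −0.595 and 0.3 in the 46 genes. Over all protein-coding genes tested they were −0.352 and 0.725, so the direction by A content is not particular to these genes.

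With a smooth offset on A content in the fit, rho across the 46 genes was 0.05, and 17 genes fell and 7 rose. By construction the offset takes out any difference between libraries that follows A content, so a rho near 0 is not a result. The log2 fold change of SEC62 became 1.56 and that of SRP72 became 0.60, both still past the threshold, and that of SEC24C became −2.33. KDELR1 and KDELR2 were no longer called, at −0.45 and −0.39, and neither was SRP9, at 0.31. SEC61A2, SRP19 and SRPRB then rose, and SRP54, SPCS1 and COPB1 fell. On the vesicle side 14 genes fell and none rose under this offset, with a median of −0.75, and on the translocation side 3 fell and 7 rose. This fit called 8409 of all genes tested, against 7940 without the offset, and their split by direction is not given here.

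**Figure D5:**
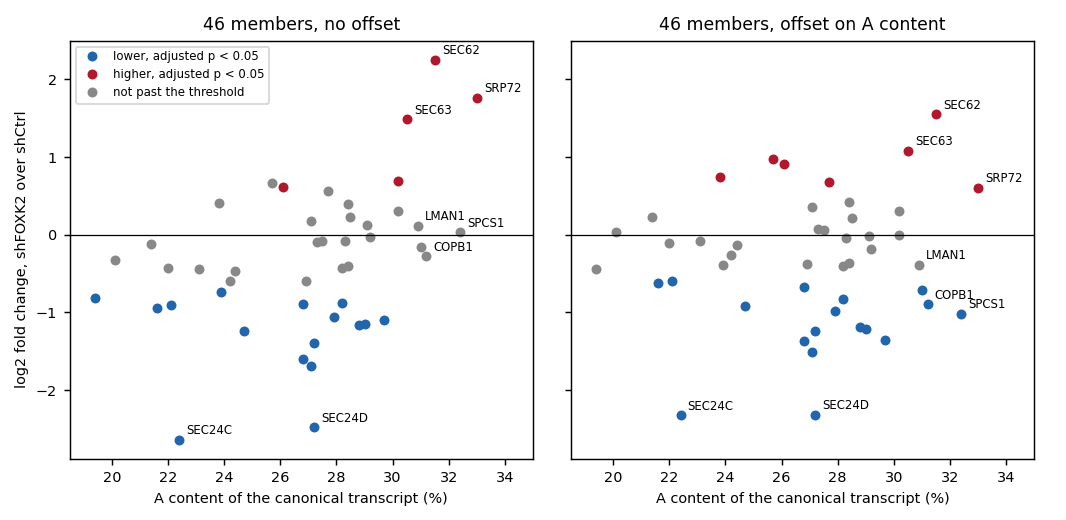
Log2 fold change in shFOXK2 over shCtrl against the percentage of A in the transcript, without and with a smooth offset on A content, for the 46 genes, blue for genes that fell, red for genes that rose and gray for the rest. Spearman's rho is 0.41 without the offset and 0.05 with it, and SEC24C and SEC24D stay lowest in both. The offset takes out differences that follow A content by construction.

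Further genes of the early secretory pathway, from a list of 82 that excludes the 46, were counted for context. Of 81 tested, 30 fell and 2 rose, with a median log2 fold change of −0.48, beside 22.7% of all genes tested that fell and 25.7% that rose. COPI and its regulators, such as the ARF GTPases, held 9 of 11 genes that fell. The oligosaccharyltransferase, which attaches glycans during translocation, held 3 of 12, a share near the background. The largest falls were in TMED4 and TMED1 of the p24 family (log2 fold changes −1.52 and −1.44), the ARF regulator ARFGAP3 (−1.47), the oligosaccharyltransferase subunit DDOST (−1.43) and GET4 of the tail-anchored protein pathway (−1.34). The rises were in EMC2 (2.18), a subunit of the ER membrane insertion complex, and ERGIC2 (1.84). EMC2 had 17.2 and 13.8 CPM in shCtrl and 64.8 and 75.8 CPM in shFOXK2, which did not overlap.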

How the data were processed

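Polyadenylated RNA of 4 OVCAR5 libraries was sequenced with single-end reads of 50 bases. Per the submitters' notes and the study's methods, the authors aligned reads to hg38 with STAR 2.5.2 and used HTSeq for counting. What the authors deposited are raw, unnormalized counts for each gene symbol and library. The strand setting and annotation of the counting are not given in the sources used here, so reads of overlapping genes may be lost or misassigned.

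Genes were filtered with filterByExpr, scaled by TMM, and compared with the 2-sided quasi-likelihood test of edgeR 4.0.16 (R 4.3.3), with Benjamini-Hochberg adjustment over 16417 genes and a threshold of 0.05. The SE was the absolute log2 fold change over the root of F. Library totals of 14284005 to 21950873 counts set floors that cover counting error alone. The genes and lists were chosen with earlier results of these data known.

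All 46 genes were accounted for. CPM in every library is given for the called gene with the largest change in each complex and direction, for paralog pairs and for genes whose groups overlap, with some others added after their values were seen. From the wider list the 5 largest called changes in each direction are named. Alternatives were DESeq2 1.42.0, the edgeR exact test, other scalings and filters, a replicate block, offsets on GC, A content or length, and leaving out each library. Paralog ratios used a prior count of 0.5.

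Positions, lengths and composition came from GENCODE v44. Of 56655 symbols, 36053 were matched directly and 1182 through older symbols. Promoter sequences came from RefSeq (GRCh38.p14).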

Additional observations from a re-analysis of the deposited data

How the results depend on the processing

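Of the 21 called genes, 17 kept their call in all 12 alternatives and 13 also when each of the 4 libraries was left out. SRP9 and SEC11A were lost most often. The vesicle side held 14 to 18 falls over the alternatives, 12 to 17 with a library left out, and no rise in any. Dropping the filter and the offsets on GC and A content moved the median of all genes by −0.102, 0.128 and 0.173 (0.12 and 0.166 for the offsets in a blocked fit). A group left with 1 library is assumed to vary like the other.

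The replicate numbers shared by the groups are not explained by any label, and the main fit did not pair the libraries. Deviations of same-numbered libraries correlated at −0.113 over 16417 genes. With 2 libraries a group, this value cannot exclude that same-numbered libraries were prepared together. With a replicate block 7270 genes were called, and 16 of the 46 genes fell and 3 rose. A crossed block, chosen after seeing the data, called 8350 genes and 24 of the 46.

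The cause of the following changes was not tested. Rises among the 46 genes, all on the translocation side, were 3 with the DESeq2 Wald test, no filter or the replicate block, and 3 to 5 with a library left out. Falls on that side were 6 with the GC offset, 5 when this was blocked, 3 with the A-content offset (blocked or not), 5 with the length offset, and 0 to 1 with a library left out. Rises in the wider list were 4 with the GC offset, 6 with the A-content offset (blocked or not) and 2 to 4 with a library left out.

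Median log2 fold changes moved as follows, the block value in parentheses. Without a filter they were −0.115 for Sec61, 0.461 for the signal recognition particle, 0.124 for signal peptidase, −1.167 for COPI, −0.881 for cargo receptors and −0.466 for all 46. With the GC offset they were 0.151 (0.149) for Sec61, 0.224 (0.22) for the particle, −0.29 (−0.266) for signal peptidase, −0.904 (−0.905) for COPI, −0.925 (−0.918) for cargo receptors and −0.481 (−0.48) for all. With the A-content offset they were 0.329 (0.33) for Sec61, −0.004 (−0.005) for TRAP, 0.359 (0.36) for the particle, −0.004 (0.035) for signal peptidase, −0.667 for COPII, −0.911 (−0.912) for COPI and −0.419 (−0.422) for cargo receptors. With the length offset they were −0.178 for Sec61, 0.342 for signal peptidase and −0.957 for COPI. Leaving out a library gave −0.069 to 0.015 for Sec61, −0.38 to −0.095 for TRAP, 0.234 to 0.565 for the particle, 0.037 to 0.281 for signal peptidase, −1.109 to −0.705 for COPII, −1.183 to −0.987 for COPI, −0.897 to −0.775 for cargo receptors and −0.412 to −0.32 for all.

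Changes of sign fell on genes without a call, apart from SRP9, at −0.29 (−0.301) with the GC offset. That offset also gave SSR4 0.029 (0.028), SPCS1 −0.29 (−0.266), SPCS2 −0.451 (−0.437), SPCS3 −0.591 (−0.566), SEC11C 0.083 (0.087), SAR1B −0.273 (−0.283), COPE 0.136 (0.132) and LMAN1 −0.658 (−0.658). The A-content offset gave SSR1 0.074 (0.091), SSR4 0.035 (0.036), SRP14 −0.01 (−0.005), SPCS1 −1.014 (−0.978), SPCS3 −0.004, SAR1A 0.055 (0.051), COPE 0.224 (0.222) and LMAN1 −0.383 (−0.378). The length offset gave SSR3 0.043, SRP14 −0.056 and SAR1A 0.034. SPCS1 was −0.072 without a filter, and SEC11C was 0.018 scaled by library size alone and 0.025 with at least 10 counts in every library. With a library left out, the ranges that cross 0 were −0.407 to 0.178 for SSR1, −0.312 to 0.054 for SSR3, −0.462 to 0.085 for SRP54, −0.096 to 0.093 for SPCS1, −0.25 to 0.988 for SPCS3, −0.157 to 0.007 for SEC11C, −0.239 to 0.01 for SAR1A, −0.613 to 0.008 for COPB1, −0.339 to 0.023 for COPE and −0.35 to 0.623 for LMAN1.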
